A study of Mus musculus with 4 samples.

Results

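Blood clotting is set off by tissue factor and held back by several natural inhibitors, and 10 genes of this system were followed in bone marrow cells of mice injected with lipopolysaccharide (LPS), a cell wall component of Gram-negative bacteria that triggers inflammation. They were Procr, Thbd, Tfpi, F3, F5, F7, F10, F13a1, F2r and Plaur, taken by name, and all 10 were present among the 19938 genes measured. The mice were C57BL/6N. Those of the LPS group received 1 intraperitoneal injection of 50 µg LPS, a mixture from Escherichia coli K12 and Salmonella minnesota in equal parts, and those of the other group received phosphate-buffered saline (PBS) by the same route. Marrow was examined 8 h later. The LPS group held replicates 1 and 2 and the PBS group replicates 1 and 3, each on 1 Affymetrix GeneChip Mouse Gene 1.0 ST array, so that 4 arrays entered every comparison. The labels do not say whether a sample came from 1 mouse or from several, nor the age or sex of the animals. The p-values thus rest on the spread between these samples, shared in part between genes, and that spread may be partly technical.

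Values are log2 expression values, so that a difference of 1 is a 2-fold change. The median gene stood at 8.01 to 8.03 on each array and the lower quartile at 6.66 to 6.72. Over all genes, whose values are not independent of each other, the LPS arrays correlated at r = 0.997 and the PBS arrays at 0.995, against 0.988 to 0.990 between arrays of different groups. Genes that mark marrow cells were high on every array, with log2 values of 11.92 to 12.01 for the pan-leukocyte gene Ptprc, 12.43 to 12.86 for the granule enzyme gene Mpo, 13.32 to 13.44 for the neutrophil gene S100a8 and 11.75 to 12.27 for the B-cell gene Cd79a. The mesenchymal stroma markers differed within the PBS group. Their summed level on the linear scale over 10 markers was 25132 and 23839 in LPS replicates 1 and 2, against 15906 and 32267 in PBS replicates 1 and 3. In whole marrow, fewer cells of a type and less RNA per cell cannot be told apart.

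Tissue factor, encoded by F3, is a membrane protein that binds factor VII from plasma, and the pair activates factor X. Activated factor X, with factor V as its cofactor, turns prothrombin into thrombin, which makes fibrin and signals to cells through the receptor encoded by F2r. Thrombin bound to thrombomodulin instead activates protein C, which the endothelial protein C receptor holds on the cell surface, and activated protein C inactivates the cofactors factor V and factor VIII. In marrow, the protein C receptor is known as a surface marker of stem cells, and macrophages, megakaryocytes and the sinusoid endothelium each express parts of this system.

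The 2 cell surface partners of the protein C pathway moved in opposite directions. Procr was 2.94-fold higher after LPS, and Thbd was 2.32-fold lower. The tissue factor pathway inhibitor gene Tfpi was 1.82-fold lower, the factor X gene F10 was 1.48-fold higher and the thrombin receptor gene F2r was 1.35-fold higher. The other 5 genes, among them F3 itself, did not pass the test. Thus 3 of the 10 genes rose and 2 fell by limma's moderated test, with p-values adjusted over all 19938 genes by the Benjamini-Hochberg method and a threshold of 0.05. Among all genes 2.39% rose and 1.27% fell, 3.66% in all. The arrays of the groups did not overlap in 7 of the 10 genes, with LPS higher in 4 and lower in 3, whereas over all genes 44.9% did not overlap, with LPS higher in 20.4% and lower in 24.5%. The median log2 fold change of the 10 genes was 0.01, between extremes of 1.55 and -1.21, and that of all genes was -0.01.

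The sequences below are RefSeq promoter windows of GRCm38.p6, each running from 250 bases before an annotated transcript start to 50 bases after it, 5′ to 3′ on the strand of the gene. For F10, F2r and F3 that start is the outer end of the gene as given by its coordinates below, whereas it lies 16 bases inside the gene for Tfpi, 92 for Procr and 1546 for Plaur. They are shown for genes that changed (Procr, F10, F2r and Tfpi) and for F3 and Plaur, which did not pass the test and hold a match. Windows were found for 9 of the 10 genes (11 windows, since Tfpi and F13a1 have more than 1), and not for Thbd. For Tfpi the outer of its windows is shown. Capitals mark matches to TGANTCA, the site of AP-1, a factor of immediate-early signalling.
Procr (chr2:155750967-155751266, plus strand): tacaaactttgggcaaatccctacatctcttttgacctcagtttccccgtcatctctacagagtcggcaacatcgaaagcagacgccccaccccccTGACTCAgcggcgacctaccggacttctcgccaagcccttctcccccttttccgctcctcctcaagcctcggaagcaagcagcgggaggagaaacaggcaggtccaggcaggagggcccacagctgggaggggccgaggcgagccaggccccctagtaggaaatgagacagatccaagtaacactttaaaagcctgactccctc
F10 (chr8:13037058-13037357, plus strand): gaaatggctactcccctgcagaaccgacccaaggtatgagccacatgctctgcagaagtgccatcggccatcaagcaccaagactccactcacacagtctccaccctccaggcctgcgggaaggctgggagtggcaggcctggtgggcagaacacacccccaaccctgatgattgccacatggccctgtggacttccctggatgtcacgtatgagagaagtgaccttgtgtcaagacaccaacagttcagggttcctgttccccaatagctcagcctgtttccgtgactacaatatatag
F2r (chr13:95618417-95618716, minus strand): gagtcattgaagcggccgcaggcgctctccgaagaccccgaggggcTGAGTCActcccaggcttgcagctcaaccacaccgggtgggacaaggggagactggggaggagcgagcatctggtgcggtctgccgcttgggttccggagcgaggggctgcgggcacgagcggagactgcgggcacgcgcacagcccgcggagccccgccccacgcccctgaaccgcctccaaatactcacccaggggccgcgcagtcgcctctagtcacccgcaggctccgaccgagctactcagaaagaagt
Tfpi (chr2:84476710-84477009, minus strand): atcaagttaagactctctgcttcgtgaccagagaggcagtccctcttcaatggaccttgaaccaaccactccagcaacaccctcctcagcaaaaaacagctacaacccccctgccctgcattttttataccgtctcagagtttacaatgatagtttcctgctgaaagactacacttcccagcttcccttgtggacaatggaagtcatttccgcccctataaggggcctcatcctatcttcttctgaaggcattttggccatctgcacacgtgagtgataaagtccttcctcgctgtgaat
F3 (chr3:121723287-121723586, plus strand): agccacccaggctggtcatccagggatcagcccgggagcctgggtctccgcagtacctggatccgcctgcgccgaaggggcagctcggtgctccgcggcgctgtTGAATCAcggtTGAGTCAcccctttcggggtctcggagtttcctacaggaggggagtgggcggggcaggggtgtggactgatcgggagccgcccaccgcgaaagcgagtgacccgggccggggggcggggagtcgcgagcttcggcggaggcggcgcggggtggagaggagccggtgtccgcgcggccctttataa
Plaur (chr7:24462233-24462532, plus strand): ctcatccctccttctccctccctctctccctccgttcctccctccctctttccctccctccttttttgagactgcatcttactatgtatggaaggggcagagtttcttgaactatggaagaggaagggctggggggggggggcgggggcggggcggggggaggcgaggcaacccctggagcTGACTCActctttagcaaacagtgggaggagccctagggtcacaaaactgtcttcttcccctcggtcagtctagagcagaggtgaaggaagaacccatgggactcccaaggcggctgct
The TGANTCA motif, which reads the same on both strands, was found in 4 of the 11 windows, those of Procr, F3, Plaur and F2r, and in 7.81% of the 32851 windows of all genes. Counted from the start its window is built on, the match began 154 bases before it in Procr, 204 in F2r and 69 in Plaur, where it lies within the gene. F3 held a pair of matches, at 146 and 135 bases before the start. Of the 4 genes with a match, Procr and F2r rose and F3 and Plaur did not pass the test, while of the 5 genes without one, F10 rose, Tfpi fell and F5, F7 and F13a1 did not pass. The STAT motif TTCNNNGAA and the kappaB consensus GGGRNNYYCC were each searched on both strands (N is any base, R is A or G, Y is C or T). They had 0 matches in the 11 windows, against 8.30% and 8.46% of all windows. Sites that depart from these letters were not counted. Motifs were allowed to overlap. A match is a string of letters and not a measured binding site, and the absence of one speaks only of these letters in this window.

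Procr (chr2:155751125-155755478, GRCm38.p6) encodes the endothelial protein C receptor, which presents protein C to the complex of thrombin and thrombomodulin. Its log2 value was 8.88 and 8.75 in LPS replicates 1 and 2, against 7.25 and 7.27 in PBS replicates 1 and 3. Both LPS arrays were high and both PBS arrays low, and the gap between the groups was wider than the spread within either. The group means were 8.81 ± 0.094 for LPS and 7.26 ± 0.016 for PBS (SD, n = 2 each). This gave a log2 fold change of 1.55 (95% interval 1.34 to 1.77, SE 0.0924), with a limma adjusted p of 8.94e-05. It was larger in size than that of 99.6% of genes.

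Thbd (chr2:148404471-148408188) encodes thrombomodulin, the receptor that turns thrombin from a clotting enzyme into the activator of protein C. On the LPS arrays its log2 value was 8.14 and 8.18, against 9.36 and 9.39 on the PBS arrays. The groups did not overlap, and the arrays within each group lay close together. The means were 8.16 ± 0.027 for LPS and 9.37 ± 0.019 for PBS (SD, n = 2 each). This gave a log2 fold change of -1.21 (95% interval -1.42 to -1.01, SE 0.0865) and the limma adjusted p 0.000227. In the leave-one-out fits the log2 fold changes ran from 1.49 to 1.62 for Procr and from -1.23 to -1.196 for Thbd. A fit with a single array left in a group has no spread to measure in that group. Procr and Thbd both passed with every probe set in the fit, at limma adjusted p-values of 0.00391 and 0.00592.

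**Figure D1:**
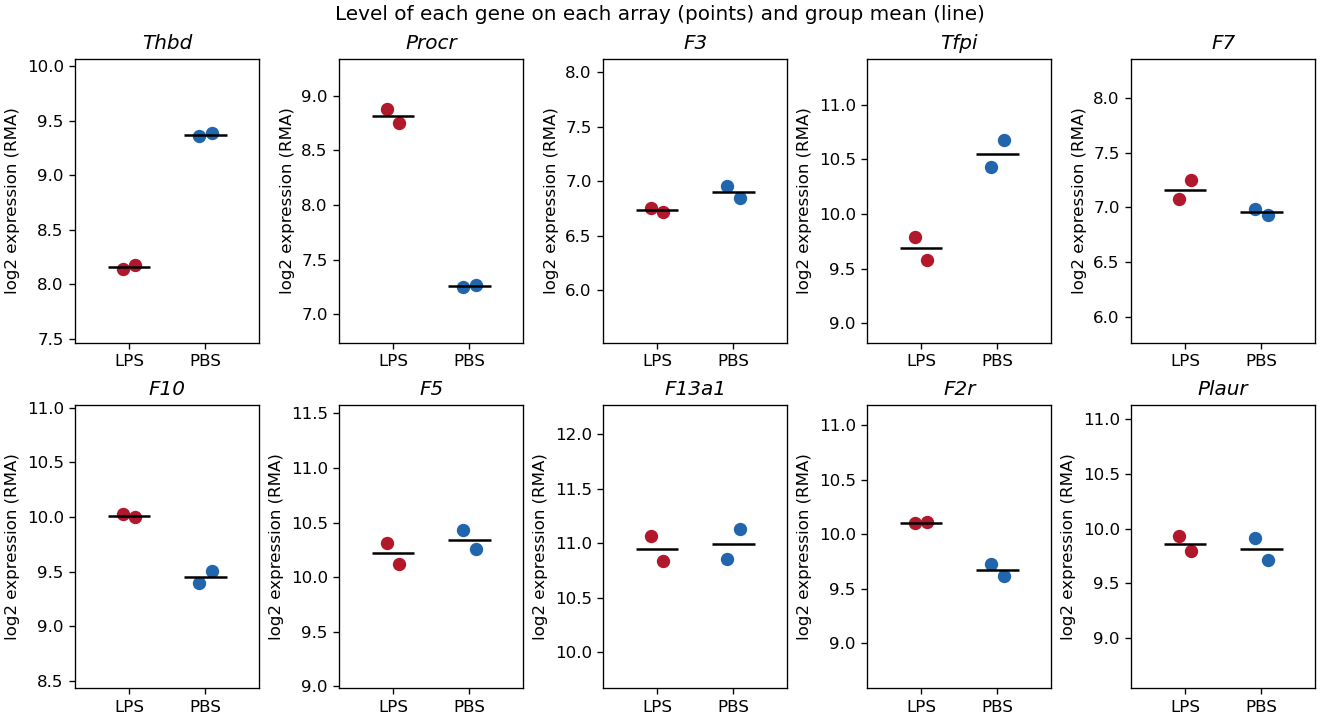
Log2 expression of the 10 genes on each array, 1 panel per gene, with LPS arrays in red on the left, PBS arrays in blue on the right and the group mean as a line; each vertical axis spans the same number of log2 units. Procr stands higher on both LPS arrays (8.75 and 8.88, against 7.25 and 7.27 on PBS arrays), and Thbd and Tfpi stand lower on both.

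Tissue factor itself was not among the genes that changed. F3 (chr3:121723537-121735052), the cell surface starter of clotting, had log2 values of 6.75 and 6.72 on the LPS arrays, against 6.96 and 6.85 on the PBS arrays. The LPS arrays lay just below the PBS arrays, and all 4 values were near the lower quartile of genes. Its log2 fold change was -0.17 (95% interval -0.38 to 0.04, SE 0.0906, adjusted p = 0.441 by limma). The interval leaves room for a fall of up to 0.38 and for a rise of up to 0.04. Whether the F3 probe set lay above background on these arrays was not tested since no background level came with the values.

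Tfpi (chr2:84432855-84476775) encodes the inhibitor that blocks the tissue factor and factor VII complex together with activated factor X. Its log2 value was 9.79 and 9.58 in LPS replicates 1 and 2, against 10.43 and 10.68 in PBS replicates 1 and 3. The LPS arrays were both below the PBS arrays, with a wider spread within groups than for Thbd. The means were 9.69 ± 0.15 for LPS and 10.55 ± 0.18 for PBS (SD, n = 2 each). This gave a log2 fold change of -0.87 (95% interval -1.15 to -0.59, SE 0.119), with a limma adjusted p of 0.00724. The leave-one-out fits gave log2 fold changes from -0.99 (without PBS replicate 1) to -0.74 (without PBS replicate 3). Tfpi did not pass with every probe set in the fit (limma adjusted p = 0.0631).

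The factor VII and factor X genes lie next to each other on chromosome 8, with 1498 bases between them, and both encode vitamin K-dependent proteases made mainly in the liver. F10 (chr8:13037308-13056676) had log2 values of 10.02 and 9.999 on the LPS arrays, against 9.39 and 9.51 on the PBS arrays. Both LPS arrays were above both PBS arrays. The means were 10.01 ± 0.017 for LPS and 9.45 ± 0.082 for PBS (SD, n = 2 each), a log2 fold change of 0.56 (95% interval 0.35 to 0.77, SE 0.0909, limma adjusted p = 0.0162). F10 missed the threshold without LPS replicate 1 (adjusted p = 0.0535) or with every probe set in the fit (adjusted p = 0.0805).

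Its neighbour F7 (chr8:13025506-13035809), which encodes the partner of tissue factor, had log2 values of 7.07 and 7.25 on the LPS arrays, against 6.99 and 6.93 on the PBS arrays. The LPS arrays lay above the PBS arrays, but the nearest LPS and PBS arrays were closer to each other than the LPS arrays were among themselves. Its log2 fold change of 0.20 (95% interval -0.03 to 0.43, SE 0.0981) did not pass, with a limma adjusted p of 0.377. On the other side of F10, 3907 bases away, lies Proz, which encodes the vitamin K-dependent cofactor protein Z. Proz had log2 values of 7.53 and 7.43 on the LPS arrays, against 7.483 and 7.4996 on the PBS arrays, a log2 fold change of -0.01 (limma adjusted p = 0.987). F10 was thus the 1 gene of these 3 neighbours that passed, and the differences between their changes were not tested.

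The cofactor gene F5 and the fibrin crosslinking gene F13a1 did not change detectably. F5 (chr1:164151835-164220277) encodes factor V, the cofactor of activated factor X and a target of activated protein C. Its log2 value was 10.32 and 10.12 on the LPS arrays, against 10.43 and 10.26 on the PBS arrays. The groups overlapped, and the log2 change was -0.12 (95% interval -0.38 to 0.13, SE 0.108, limma adjusted p = 0.676). F13a1 (chr13:36867178-37050244) encodes the catalytic subunit of factor XIII, which links fibrin strands. It had log2 values of 11.06 and 10.84 on the LPS arrays, against 10.86 and 11.13 on the PBS arrays. Here too the groups overlapped, and the log2 change was -0.04 (95% interval -0.33 to 0.25, SE 0.125, limma adjusted p = 0.935). The intervals leave room for falls of up to 0.38 (F5) and for rises of up to 0.25 (F13a1).

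Of the cell surface receptors downstream, F2r passed the test and Plaur did not. F2r (chr13:95601780-95618466) encodes protease-activated receptor 1, which thrombin cleaves to signal into the cell. Its log2 value was 10.10 and 10.11 on the LPS arrays, against 9.73 and 9.61 on the PBS arrays. The LPS arrays were nearly equal and both above the PBS arrays. The means were 10.11 ± 0.0069 for LPS and 9.67 ± 0.079 for PBS (SD, n = 2 each), and the log2 change was 0.43 (95% interval 0.22 to 0.65, SE 0.0904). The limma adjusted p of 0.0456 lay close to the threshold. F2r missed the threshold without LPS replicate 1 (adjusted p = 0.147), LPS replicate 2 (0.173) or PBS replicate 3 (0.0889), and with every probe set in the fit (0.147).

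Plaur (chr7:24460937-24475970) encodes the urokinase receptor, which gathers the plasminogen activator urokinase on the surface of leukocytes. It had log2 values of 9.93 and 9.79 on the LPS arrays, against 9.91 and 9.71 on the PBS arrays. The groups overlapped almost fully. The log2 change was 0.05 (95% interval -0.20 to 0.30, SE 0.107, limma adjusted p = 0.901). Over the 10 genes, the SD within a group ran from 0.0069 (F2r, LPS) to 0.19 (F13a1, PBS), so the changes of Procr, Thbd and Tfpi were several times the largest spread between replicates.

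**Figure D2:**
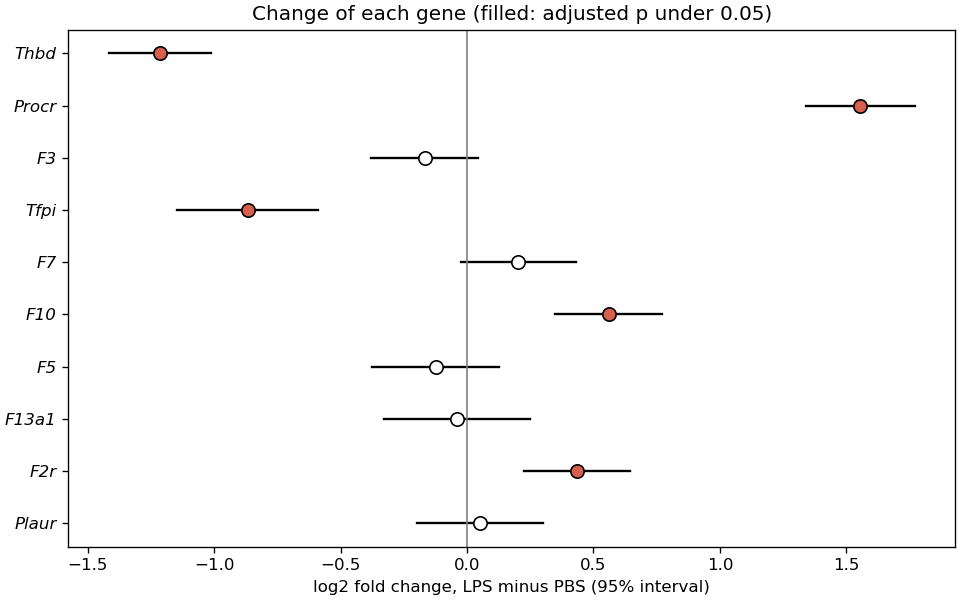
Log2 fold change of each gene (LPS minus PBS, horizontal axis) with its 95% limma interval, ordered by role from the protein C receptors at the top to the cell surface receptors at the bottom; filled points have an adjusted p under 0.05. The intervals of Procr (1.34 to 1.77), F10 and F2r lie above 0, those of Thbd (-1.42 to -1.01) and Tfpi below it, and the other 5 include it.

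With 2 arrays against 2, an exact permutation test cannot give a two-sided p below 0.333. The calls above therefore rest on limma's sharing of variance between genes. An ordinary linear model without that sharing called 0 of 19938 genes after adjustment and 2185 at an unadjusted p under 0.05, 5 of the 10 genes among them.

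Of 58 other haemostasis genes measured, 1 rose and 4 fell. Of 12 other clotting factors and cofactors measured, 1 rose and 1 fell, with a median log2 fold change of 0.01. Tgm2, which encodes the tissue transglutaminase, a relative of factor XIII, had log2 values of 11.04 and 11.22 on the LPS arrays, against 10.03 and 9.9997 on the PBS arrays, and rose by 1.11 (SE 0.0971, limma adjusted p = 0.000689). F8, which encodes factor VIII, the other cofactor cut by activated protein C, had 8.93 and 8.86 on the LPS arrays, against 9.30 and 9.47 on the PBS arrays, and fell by 0.49 (SE 0.0977, limma adjusted p = 0.0377). The thrombin precursor gene F2 (0.02) and the fibrinogen genes Fga (0.04), Fgb (0.02) and Fgg (-0.04), all known as liver products, did not pass. By mean level they stood at percentiles 24.3, 19.9, 17.7 and 7.3 of all genes, and whether they lay above background was not tested. F8 missed the threshold without LPS replicate 1 (adjusted p = 0.0748), LPS replicate 2 (0.15) or PBS replicate 3 (0.0703), and with every probe set in the fit (0.143).

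Of the 10 other natural anticoagulant genes, 0 passed, and their median log2 fold change was 0.01. Anxa5 and Gas6 had the highest array levels of the list. Anxa5, which encodes a phosphatidylserine-binding protein, had a log2 fold change of -0.03, and Gas6, a relative of protein S that binds the TAM receptors, had -0.41 (limma adjusted p = 0.0549). Proc, the gene of protein C itself, had log2 values of 6.39 and 6.60 on the LPS arrays, against 6.67 and 6.57 on the PBS arrays, and a log2 fold change of -0.13 (limma adjusted p = 0.648). Its mean level stood at percentile 22.7 of all genes, and whether Proc lay above background was not tested. Tfpi2, a relative of Tfpi, had 8.32 and 8.09 on the LPS arrays, against 7.68 and 7.78 on the PBS arrays. Its log2 fold change of 0.47 had the opposite sign to that of Tfpi and did not pass (limma adjusted p = 0.0618, and 0.0393 without PBS replicate 3, 0.0433 without LPS replicate 2 and 0.0483 with arrays centred on their medians). Gas6 passed with an intensity trend and robust eBayes (0.0465) and without the lowest 25% of genes by level (0.046).

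Among 9 genes of vitamin K recycling and factor secretion, 1 fell, and the median was -0.05. Nqo1, a quinone reductase, had log2 values of 7.77 and 7.72 on the LPS arrays, against 8.48 and 8.48 on the PBS arrays, and fell by 0.74 (SE 0.0864, limma adjusted p = 0.00318). The gamma-carboxylase gene Ggcx, whose product completes factor VII, factor X and protein C, had a log2 fold change of -0.05 and did not pass. Of the other protease-activated receptor genes, F2rl2 (0.09) and F2rl3 (0.30) were measured and 0 of these 2 passed. F2rl2 lies 78453 bases from F2r on chromosome 13.

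Of 11 fibrinolysis genes, 1 fell, with a median of -0.02. Serpinb2, which encodes the inhibitor PAI-2 of urokinase, had log2 values of 7.96 and 7.84 on the LPS arrays, against 8.39 and 8.58 on the PBS arrays, and fell by 0.59 (SE 0.102, limma adjusted p = 0.0227, but 0.0861 without LPS replicate 2 and 0.108 with every probe set in the fit). Plau, the gene of urokinase and thus of the ligand of Plaur, had 8.75 and 8.34 on the LPS arrays, against 8.29 and 8.29 on the PBS arrays, and its log2 fold change of 0.26 did not pass (limma adjusted p = 0.421).

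Of 14 platelet activation and adhesion genes, 1 fell, and the median was -0.01. Entpd1, which encodes CD39, an enzyme that removes the platelet agonist ADP, had log2 values of 9.93 and 9.70 on the LPS arrays, against 10.47 and 10.48 on the PBS arrays, and fell by 0.66 (SE 0.103, limma adjusted p = 0.0137, but 0.0538 without LPS replicate 2 and 0.0816 with every probe set in the fit). The 9 megakaryocyte markers had 0 members past the threshold, a median of -0.02 and summed linear levels of 36605 and 36506 on the LPS arrays, against 37518 and 35816 on the PBS arrays. The platelet chemokine genes Ppbp (-0.02) and Pf4 (0.04) were their members with the highest levels. F5 and F13a1, both also made by megakaryocytes, did not pass either, and the part of these cells in their values was not tested.

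**Figure D3:**
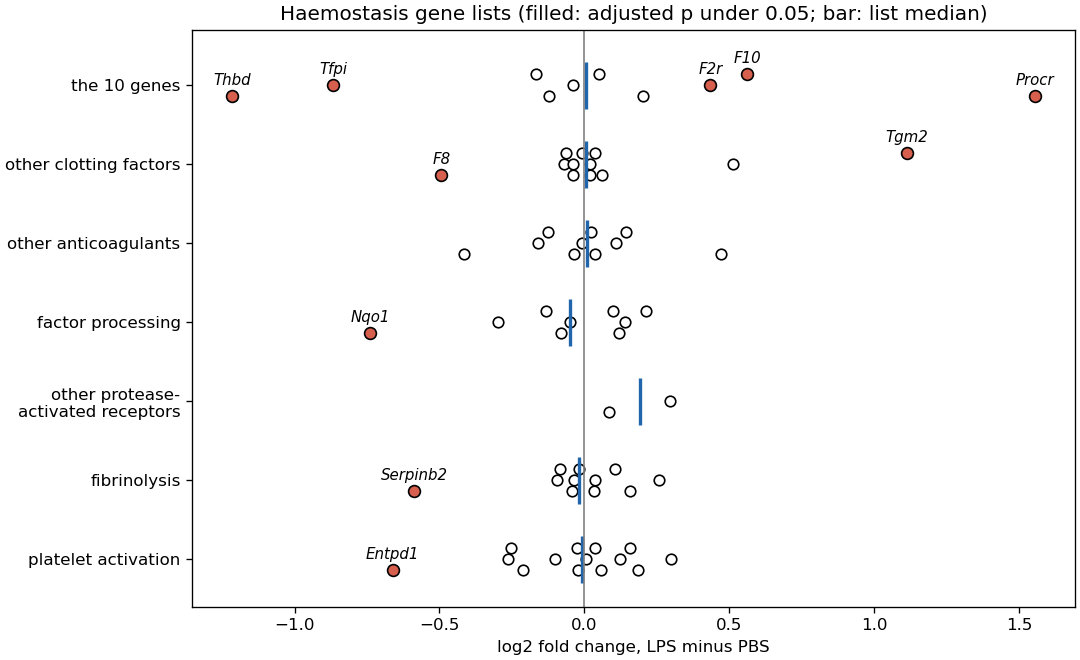
Log2 fold change (LPS minus PBS, horizontal axis) of each measured gene in 7 lists of haemostasis genes, with genes at an adjusted p under 0.05 filled and named and the list median as a blue bar. All list medians lie between -0.05 and 0.19, and the 5 named genes of the top list are spread on both sides of 0.

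Since Thbd, Procr and Tfpi are known products of endothelium, and Thbd and F10 also of macrophages and monocytes, markers of these cells were set beside them. Of 13 endothelium markers 1 rose and 3 fell, with a median log2 fold change of 0.08. Egfl7, a secreted endothelial protein gene, rose by 0.59 (SE 0.0922, limma adjusted p = 0.014). Stab2, a scavenger receptor gene of sinusoid endothelium, fell by 1.26 (SE 0.0869, limma adjusted p = 0.000206), the angiopoietin receptor gene Tek fell by 0.89 (adjusted p = 0.00489) and the lymphatic and sinusoid receptor gene Flt4 fell by 0.57 (0.0399). Egfl7 missed the threshold without LPS replicate 1 (adjusted p = 0.0539) and Flt4 without PBS replicate 1 (0.0716) or LPS replicate 2 (0.159), and neither passed with every probe set in the fit (0.0741 and 0.16). The defining endothelial genes Cdh5 (0.36) and Pecam1 (0.11) did not pass. Emcn (0.52, limma adjusted p = 0.106) and Robo4 (0.28, 0.198) did not pass either but were higher on both LPS arrays. Of the 13 markers, 9 had a log2 fold change above 0 and 4 below it. The summed linear level of the list was 8761 and 8670 on the LPS arrays, against 8768 and 8643 on the PBS arrays, so the groups overlapped in it. The part of sinusoid endothelium in the changes of Thbd and Tfpi was not tested.

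Of 13 monocyte and macrophage markers 2 rose and 4 fell, with a median of -0.17. Spic, a transcription factor gene of iron-recycling macrophages, rose by 1.49 (limma adjusted p = 0.000435) and Adgre1, a widely used macrophage marker gene, by 0.56 (0.0287). Adgre1 missed the threshold without LPS replicate 1 (adjusted p = 0.0912) or PBS replicate 1 (0.055), and with every probe set in the fit (0.124). The scavenger receptor gene Cd163 fell by 2.41 (limma adjusted p = 1.91e-05), the mannose receptor gene Mrc1 by 1.72 (5.71e-05) and the adhesion gene Vcam1 by 0.79 (0.00309). The efferocytosis receptor gene Mertk fell by 0.54 (0.0317, but 0.158 without LPS replicate 2 and 0.132 with every probe set in the fit), while the growth factor receptor gene Csf1r (0.11) and the lysosomal gene Cd68 (-0.03) did not pass. Their summed linear level was 14107 and 13444 on the LPS arrays, against 15238 and 15810 on the PBS arrays. It was lower on both LPS arrays, as was that of the neutrophil markers below, and such a sum gives most weight to the genes with the highest levels. The part of monocytes and macrophages in the changes of Thbd, Tfpi and F10 was not tested.

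Of 13 neutrophil markers 1 fell, Retnlg (-0.76, limma adjusted p = 0.0171), with a median of -0.19 and summed linear levels of 88371 and 79854 on the LPS arrays, against 99929 and 94803 on the PBS arrays. Of 10 mesenchymal stroma markers 1 fell, Lepr (-0.59, limma adjusted p = 0.0178), with a median of 0.10. With every probe set in the fit neither passed (adjusted p = 0.103 and 0.0897), nor did Lepr without LPS replicate 1 (0.0616). Of 9 stem and progenitor markers, which are of interest here because Procr marks such cells, 0 passed, with a median of -0.07. Those with the highest levels were Cd34 (0.30, and 0.12 to 0.48 without single arrays) and Slamf1 (0.16). Log2 fold changes were above 0 in 4 of the 9 and below it in 5. The largest falls were those of Flt3 (-0.44, limma adjusted p = 0.112) and Meis1 (-0.32, 0.252). The summed linear levels of the 9 markers were 4624 and 4261 on the LPS arrays, against 4456 and 4488 on the PBS arrays, and overlapped between groups. The part of stem cells in the change of Procr was not tested.

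**Figure D4:**
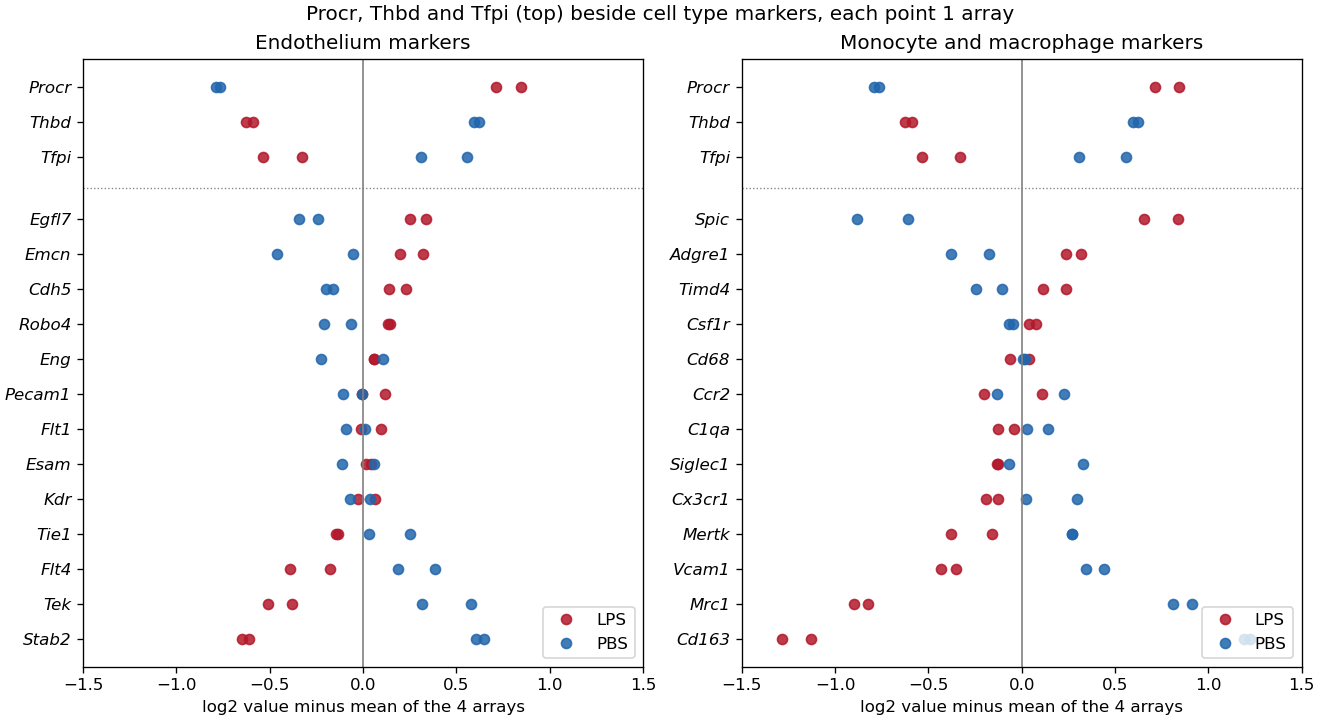
Log2 value of each gene minus its mean over the 4 arrays (horizontal axis), 1 point per array, LPS in red and PBS in blue, for Procr, Thbd and Tfpi above the dotted line and endothelium (left) or monocyte and macrophage markers (right) below it. Of the markers past the threshold, Stab2, Tek, Flt4, Cd163, Mrc1, Vcam1 and Mertk lie on the side of Thbd and Tfpi, with PBS arrays to the right. Egfl7, Spic and Adgre1 lie on that of Procr. Of the 13 endothelium markers, 9 had a log2 fold change above 0.

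The genes with the most similar profiles to the extremes of the group were found by the root mean square distance between log2 values, each centred on its mean over the 4 arrays. For Procr they were Fcgr1, the high-affinity IgG receptor gene (distance 0.0288, log2 fold change 1.57), the cytokine gene Il6 (0.0544, 1.46) and Bst2, the gene of the interferon-inducible protein tetherin (0.0549, 1.60). For Thbd they were Stab2 (0.0322, -1.26), the lectin receptor gene Cd209d (0.0413, -1.14) and the syntaxin-binding protein gene Stxbp6 (0.0557, -1.19). Over 4 arrays in 2 groups, such a distance mostly records a group difference of like size.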

How the data were processed

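RNA of bone marrow cells was hybridised to 1 array per sample, per the labels' protocols. The authors deposited 1 log2 expression value per probe set and array, computed with RMA per the submitters' processing notes, which give no version. That the scale is log2 follows from the range of values (2.76 to 14.52).

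Of 35556 probe sets, 21789 had exactly 1 gene symbol in the platform annotation, 1621 had several and 12146 had none named here. For each gene the probe set with the highest mean was kept, which left 19938 genes, and each of the 10 genes described had 1 such probe set. Listed genes with no such probe set were not analysed here. No filter on low values was applied. LPS and PBS were compared in limma 3.58.1 (R 4.3.3; lmFit, eBayes, two-sided, no covariate) over all genes, with 2 residual and 5.59 prior degrees of freedom. Arrays, not read depth, limit precision, and 4 were used. The fit was run on 20 simulated sets with 200 changed genes. It recovered 96.4% of 2-fold changes among 19938 genes for this comparison, with 5.08% false calls. The simulated spreads were drawn from the variance model that limma fitted here, so this checks the fitting code and not that model. From each list, up to 3 risers and 3 fallers past the threshold were to be named, or the 2 with the highest level where none passed. F2, Fga, Fgb, Fgg, Proc, Proz, Tfpi2, Ggcx, Plau, Cdh5, Pecam1, Mertk, Csf1r and Cd68 were named for their roles after their values were seen. So were Flt3 and Meis1, for the size of their falls, and Emcn and Robo4, as endothelium markers higher on both LPS arrays. The genes, lists and tests were chosen with earlier results of these data known. Plots were made in matplotlib 3.10.9 under Python 3.11.15.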

Additional observations from a re-analysis of the deposited data

How the results depend on the processing

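Alternatives were every probe set in the fit, the mean of a gene's probe sets, an intensity trend with robust eBayes, an ordinary linear model, leaving out the lowest 25% of genes by mean level, centring arrays on their medians, leaving out each array and, for counts, an adjusted p under 0.01. Of the 10 genes, 3 rose and 2 fell. With every probe set in the fit 1 rose and 1 fell, with the ordinary model 0 and 0, and at 0.01, 1 rose and 2 fell. Over all genes, 476 rose and 254 fell; 63 fell with every probe set, 58 fell and 286 rose at 0.01, and 0 and 0 changed with the ordinary model. Without single arrays 385 to 696 rose and 127 to 423 fell (127 without LPS replicate 2, 382 without PBS replicate 1, 423 without PBS replicate 3). Leaving out single arrays turned the sign of 2 of the 10 genes, F13a1 (-0.18 to 0.10) and Plaur (-0.0512 to 0.15), without a call; the other 8 kept their sign in all 10 alternatives. It also turned that of Anxa5 (-0.13 to 0.0604), Cd68 (-0.0764 to 0.0255), F2 (-0.0865 to 0.13), Fgb (-0.0869 to 0.13), Fgg (-0.18 to 0.10), Pf4 (-0.0500 to 0.13) and Proz (-0.0584 to 0.0434), of which 0 passed. The 10 genes each had 1 probe set, so averaging probe sets changed only the other genes in the fit. No paired analysis was possible because the groups compared share only replicate number 1. Signal over background was not available, which limits what can be said of F3 and F7. The same holds for Proc, F2, Fga, Fgb, Fgg and Il6, whose levels were lower still.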
